A study of Mus musculus with 4 samples.

Results

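The genes described here are 9 genes of the MHC class I pathway: the classical class I heavy chains *H2-K1* and *H2-D1*, the Qa genes *H2-Q4*, *H2-Q6*, *H2-Q7* and *H2-T23*, the light chain *B2m*, the peptide transporter subunit *Tap1* and the transactivator *Nlrc5*. They were selected by symbol from the 28692 gene rows of 4 single-cell libraries, with earlier results of the same libraries known. All 9 had a row. The values that led to the selection were UMIs (unique molecular identifiers, each standing for a captured transcript) by intestine and cell class, and the ratio of *H2-Q6* and *H2-Q7* to the classical genes. Levels and differences of these kinds are therefore given as a description, without a test.

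Class I molecules display peptides from inside the cell to CD8 T cells. A heavy chain pairs with β2-microglobulin, encoded by *B2m*, and is loaded in the endoplasmic reticulum with peptides that the immunoproteasome (*Psmb8*, *Psmb9*, *Psmb10*) generates and the TAP transporter (*Tap1*, *Tap2*) imports. *H2-K1* and *H2-D1* are the polymorphic classical genes. The Qa genes encode non-classical relatives with little polymorphism: Qa-1 (*H2-T23*) presents leader peptides to NKG2A receptors, and Qa-2 is encoded in the *H2-Q6* to *H2-Q9* cluster. *Nlrc5* encodes the activator of class I genes, which acts at the X and Y boxes of their promoters, and interferon raises most genes of the pathway.

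The cells were mesenchymal stromal cells (MSC) sorted from the lamina propria, the connective tissue under the epithelium, of untreated C57BL6/Nrj female mice aged 8 to 10 weeks. Groups were small intestine and colon, with 2 libraries each (replicates 1 and 2), from 2 experiments of 3 pooled mice, after the outer muscle layer and Peyer's patches had been taken off. The gate was live, Itgb1+ and negative for CD45, Ter119, CD31, BP3, EpCAM and L1CAM. No genotype, drug or infection separates the groups, pooled mice cannot be told apart, and the labels do not say whether a replicate number ties a small intestinal to a colonic library. The file headers name Cell Ranger 3.0.2 for both replicate 1 libraries (2061 and 2590 barcodes) and 3.1.0 for both replicate 2 libraries (16795 and 13537 barcodes), so the number runs with software version and library size.

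Cells were placed by summed markers into classes: PDGFRα-high fibroblasts (FB), which lie under the epithelium and make BMPs; CD81+ FB, the deep FB that make *Grem1*; other FB, the remaining cells with FB markers; smooth muscle cells (SMC); and pericytes. In the order small intestine 1, small intestine 2, colon 1, colon 2 there were 166, 1230, 684 and 3121 PDGFRα-high FB, 412, 2885, 294 and 2187 CD81+ FB, 544, 7878, 694 and 4856 other FB, and 92, 348, 301 and 916 SMC. Libraries held 14341443 to 52269372 UMIs, and a kept cell had a median of 2734.5 to 8810.0 UMIs, with replicate 1 the deeper in each intestine. The libraries also held endothelial cells (351, 2, 235 and 24), although the sort had been set against CD31. Small intestine 2 and colon 2 shared 69 cell barcodes, and small intestine 1 and colon 1 shared 8. Gate and cluster placed 53.7 to 98.2% of the cells of a class alike. In the FB classes the 7 endothelial markers summed to 1.11 to 8.08 UMIs per 1000000 UMIs of the class (CPM), and in SMC they reached 58.2 CPM in small intestine 1 and 21.6 CPM in colon 1. The 7 immune markers lay between 1.52 and 15.6 CPM in all 4 classes. The 5 epithelial markers were all at 0 in 4 of the 8 small intestinal sums and reached 1.01 CPM there and 6.08 CPM in colon. Their part in the results was not tested.

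Of the 9 genes, 7 lie within the MHC on chromosome 17 (GRCm38, GENCODE vM21), over 2.04 Mb from *H2-K1* (chr17:33996017-34000347, minus strand) to *H2-T23* (chr17:36029773-36032855, minus strand). *H2-Q6* (chr17:35424850-35430055) and *H2-Q7* (chr17:35439155-35443773) are neighbours on the plus strand with a gap of 9.1 kb. *H2-Q4* (chr17:35379617-35385290) lies upstream of both, and *H2-D1* (chr17:35262730-35267499) a further 112.0 kb before it. *Tap1* (chr17:34187553-34197225) shares its neighbourhood with *Psmb9*, *Psmb8* and *Tap2*. *B2m* (chr2:122147686-122153083) and *Nlrc5* (chr8:94434356-94527272) lie outside the MHC. All are annotated as protein-coding genes.

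The promoters of the heavy chain genes are shown because their levels differed to unlike degrees between the intestines while several of the sequences are close. Each line gives the 180 bases before the RefSeq start (GRCm38.p6), 5′ to 3′ on the gene's strand. Capitals mark 4 motifs, searched on both strands: enhancer A (GGGATTCC), where NF-κB factors bind, the interferon response element (TTTCACTT), the X2 box (TGNTGAC) and the Y box (CCAATC). None of the 4 overlaps another in these lines, and the motifs were chosen after the sequences had been read.
H2-K1: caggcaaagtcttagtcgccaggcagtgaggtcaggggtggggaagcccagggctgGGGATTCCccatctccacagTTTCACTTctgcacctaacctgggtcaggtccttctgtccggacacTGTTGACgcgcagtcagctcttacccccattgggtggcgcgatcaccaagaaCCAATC
H2-D1: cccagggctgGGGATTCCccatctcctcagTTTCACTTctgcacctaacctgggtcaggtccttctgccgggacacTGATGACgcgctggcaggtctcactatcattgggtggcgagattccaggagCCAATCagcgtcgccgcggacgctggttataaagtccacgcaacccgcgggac
H2-Q4: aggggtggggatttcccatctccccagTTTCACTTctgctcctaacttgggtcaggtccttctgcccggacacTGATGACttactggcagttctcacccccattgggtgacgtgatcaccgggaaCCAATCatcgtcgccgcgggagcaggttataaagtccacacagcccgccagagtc
H2-Q6: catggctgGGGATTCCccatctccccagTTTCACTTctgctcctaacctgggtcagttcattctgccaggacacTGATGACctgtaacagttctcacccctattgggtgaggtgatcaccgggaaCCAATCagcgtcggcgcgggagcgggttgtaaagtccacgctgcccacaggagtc
H2-Q7: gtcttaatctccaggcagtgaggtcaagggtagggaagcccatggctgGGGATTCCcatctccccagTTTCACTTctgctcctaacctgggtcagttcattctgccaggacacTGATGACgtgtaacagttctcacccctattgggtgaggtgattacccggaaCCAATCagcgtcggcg
H2-T23: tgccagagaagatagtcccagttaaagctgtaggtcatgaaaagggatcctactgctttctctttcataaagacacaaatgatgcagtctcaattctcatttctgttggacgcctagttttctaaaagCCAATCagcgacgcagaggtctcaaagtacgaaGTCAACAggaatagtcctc
These lines are chr17:34000334-34000513 (*H2-K1*, minus), chr17:35262914-35263093 (*H2-D1*, plus), chr17:35379437-35379616 (*H2-Q4*, plus), chr17:35424670-35424849 (*H2-Q6*, plus), chr17:35438975-35439154 (*H2-Q7*, plus) and chr17:36032702-36032881 (*H2-T23*, minus).

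The windows of *H2-K1*, *H2-D1*, *H2-Q6* and *H2-Q7* held all 4 motifs, and no other of 32851 promoters did. Alone, enhancer A was present in 0.575% of those promoters, the interferon response element in 0.901%, the X2 box in 8.809% and the Y box in 12.216%. *H2-Q4* lacked the letters of enhancer A and held the other motifs, whereas *H2-T23* held only a Y box and, on the minus strand, an X2 box. *H2-Q6* and *H2-Q7* were 97.7% identical over 260 aligned promoter bases, and *H2-K1* and *H2-Q7* 87.5% over 248. The classical genes and the *H2-Q6* and *H2-Q7* pair thus matched the same 4 patterns, though the X2 box of *H2-K1* differs in its free base from that of the other three. *B2m* held an X2 and a Y box, *Tap1* held none of the 4, and *Nlrc5* had no entry.

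*H2-Q6* and *H2-Q7* were the heavy chain genes with the widest gap between the intestines: summed over libraries, their share of UMIs was 13.0 to 50.5 times higher in small intestine, depending on gene and class. In other FB, *H2-Q7* had 218 and 222 CPM in the small intestinal and only 12.2 and 17.4 CPM in the colonic libraries, a fitted log2 difference of -3.89 ± 0.31 (SE, edgeR). Replicates of an intestine lay close together and the intestines far apart. *H2-Q6* followed at 146 and 115 CPM against 7.09 and 7.53 CPM (-4.16 ± 0.26).

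The same held in PDGFRα-high FB, where the small intestinal libraries had 160.0 and 174 CPM of *H2-Q7* and the colonic ones 9.37 and 13.5 CPM (-3.70 ± 0.34). *H2-Q6* was at 128 and 88.6 CPM against 8.43 and 7.52 CPM there (-3.62 ± 0.32). In CD81+ FB both genes were lower in both intestines, with *H2-Q7* at 121 and 109 CPM against 4.81 and 4.22 CPM (-4.81 ± 0.28). *H2-Q6* was at 90.3 and 49.3 CPM against 1.48 and 2.96 CPM (-4.95 ± 0.54). Small intestinal levels of the CD81+ FB were thus below those of other FB. Colonic CD81+ FB had 13 and 40 UMIs of *H2-Q7* and 4 and 28 UMIs of *H2-Q6*.

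Colonic levels in SMC were about as low as in CD81+ FB, with *H2-Q7* at 113 and 196 CPM against 1.22 and 5.0 CPM (-5.56 ± 0.68) and *H2-Q6* at 60.0 and 95.8 CPM against 0.815 and 2.86 CPM (-5.31 ± 0.62). The colonic SMC values rest on 3 and 14 UMIs of *H2-Q7* and 2 and 8 of *H2-Q6*. FB markers summed to 14693 and 21880 CPM in small intestinal SMC and to 6363 and 9022 CPM in colonic SMC. In small intestine 2, 56.9% of gated SMC fell into its SMC cluster, which had 124 CPM of *H2-Q7* and 48.6 CPM of *H2-Q6*. The largest SMC clusters of colon 1 and colon 2 had 0 and 2.33 CPM of *H2-Q7*. The part of FB transcripts in these sums was not tested. Summed over libraries, the small intestinal rate was 50.5 times the colonic for *H2-Q7* in SMC (95% counting interval 30.8 to 88.2) and 42.9 times for *H2-Q6* (22.5 to 91.9). In CD81+ FB these ratios were 25.8 (19.6 to 34.6) and 23.1 (16.2 to 34). Intervals here cover counting error only. In pericytes, of which each library had 38 to 63, *H2-Q7* had 29 and 11 UMIs in small intestine and 0 and 1 in colon. The 0 UMIs allow a level of up to 7.66 CPM, against 142 and 128 CPM in small intestine.

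The transcripts of this pair can be told apart in part of their length. Of windows of a read's length along its transcripts, *H2-Q6* shared 7.14% with *H2-Q7*, and *H2-Q7* shared 10.01% with *H2-Q6* and 2.93% with *H2-Q5*, which was not analysed here. In the last 500 bases neither shared any. The split of UMIs between the 2 genes is therefore uncertain for reads from those windows, and the sum of both is given below. *H2-Q8* and *H2-Q9* of the same cluster were not analysed here. The other heavy chain genes shared at most 3.39% of windows, and *H2-K1*, *H2-Q4*, *B2m*, *Nlrc5* and *Tap1* shared none.

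**Figure D1:**
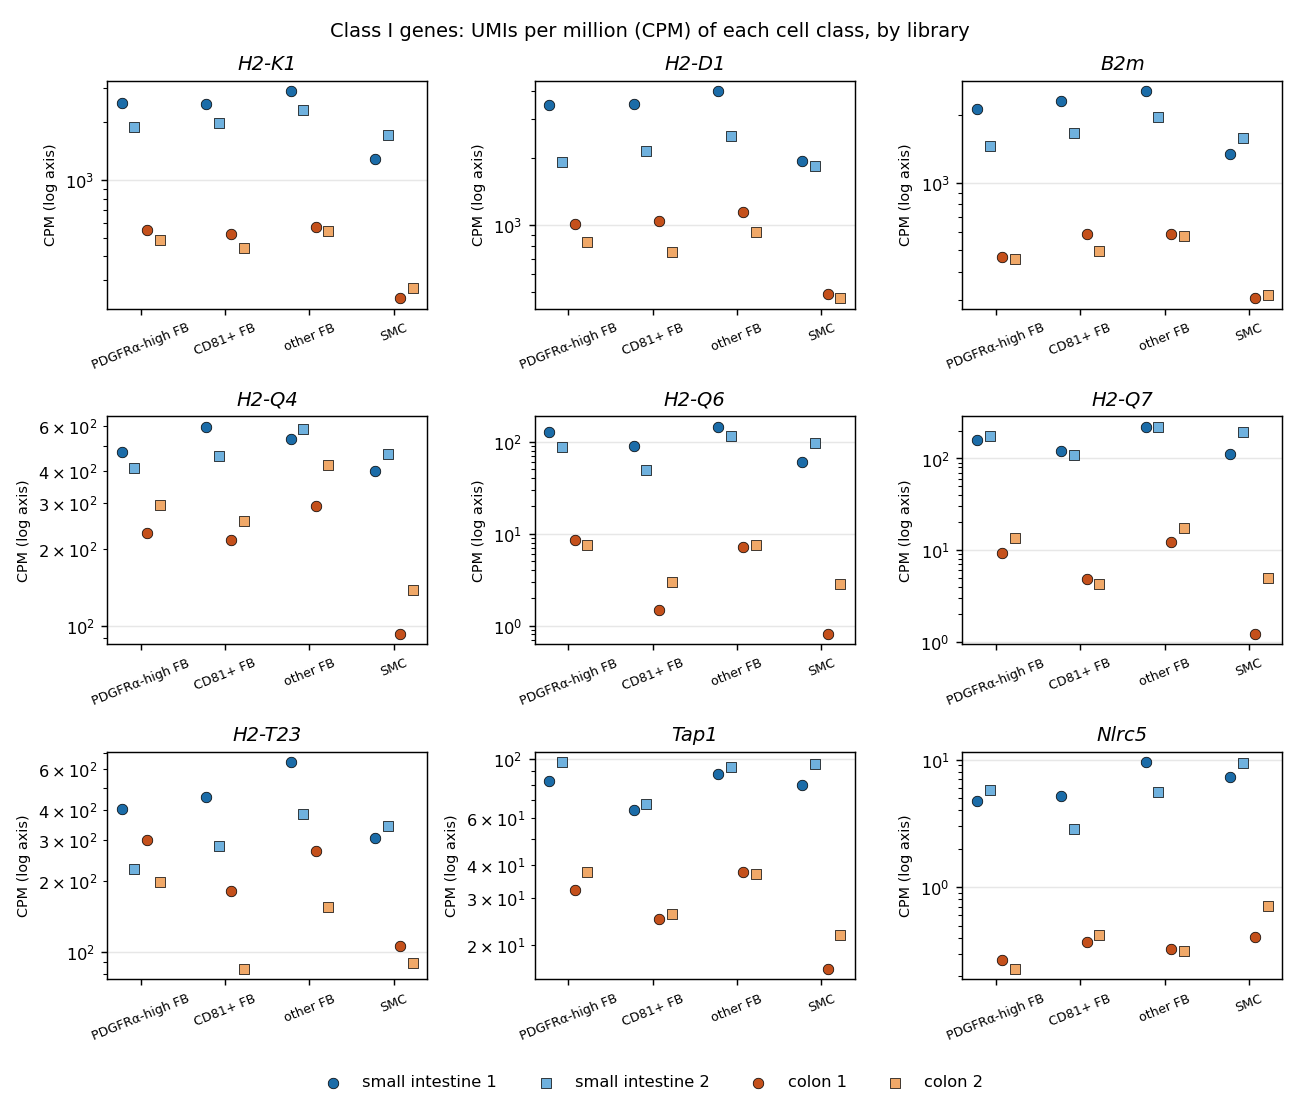
Levels (CPM, log axis) of the 9 genes in the 4 cell classes, with a point for each library and no error bar. The colonic points (orange) of *H2-Q6* and *H2-Q7* lie far below the small intestinal points (blue), with means 13.6 to 49.7 times apart, those of *H2-K1*, *H2-D1* and *B2m* are 2.91 to 5.80 times apart, and those of *H2-T23* overlap in PDGFRα-high FB.

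The classical genes and *B2m* had the most UMIs of the members in both intestines, and differed less. In other FB, the small intestinal libraries had 2894 and 2322 CPM of *H2-K1* and the colonic ones 571 and 545 CPM (-2.24 ± 0.25). *H2-D1* was at 3983 and 2498 CPM against 1140.1 and 925 CPM (-1.67 ± 0.32). *B2m*, the shared light chain, was at 2540.2 and 1952 CPM against 590.2 and 579 CPM (-1.96 ± 0.26). Colon was thus lower by 3.14 to 4.67 times in the means of these 3 genes, in which the groups did not overlap.

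Across the other classes the differences of the 3 genes stayed in a narrow band: -1.94 ± 0.29, -2.35 ± 0.31 and -2.52 ± 0.33 for *H2-K1* in PDGFRα-high FB, CD81+ FB and SMC, and -1.40 ± 0.37, -1.80 ± 0.39 and -1.97 ± 0.29 for *H2-D1*. *B2m* gave -1.81 ± 0.31, -2.01 ± 0.33 and -2.21 ± 0.30. The ratio of *B2m* to the sum of the classical genes was alike in all libraries of other FB, at 36.9, 40.5, 34.5 and 39.4% in the order given above. Light and heavy chain transcripts therefore stood in about the same proportion in both intestines.

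*H2-Q4* and *H2-T23* were the heavy chain genes with the smallest gaps. *H2-Q4*, which lies upstream of *H2-Q6* in the cluster, was at 531 and 581 CPM in small intestinal other FB and at 292 and 424 CPM in colonic ones (-0.64 ± 0.31). Its difference was -0.60 ± 0.30 in PDGFRα-high FB, -1.28 ± 0.31 in CD81+ FB and -1.88 ± 0.34 in SMC. Relative to *H2-K1* and *H2-D1* its level was higher in colon in the FB classes, at 7.72 and 12.1% in small intestinal and 17.1 and 28.8% in colonic other FB. In SMC the intestines overlapped, at 12.5 and 13.1% against 12.8 and 18.7%. Genes of the Q cluster thus stood in different relations to the classical genes.

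*H2-T23* was at 642 and 384 CPM in small intestinal and 268 and 156 CPM in colonic other FB (-1.30 ± 0.39), and at 458 and 282 CPM against 182 and 84.3 CPM in CD81+ FB (-1.64 ± 0.47). SMC gave -1.72 ± 0.29. In PDGFRα-high FB its small intestinal values were 405 and 226 CPM and its colonic values 300.0 and 198 CPM (-0.21 ± 0.38), and the groups overlapped. The sign of that value turns without small intestine 1 (0.26 ± 0.44) and without colon 2 (0.01 ± 0.52).

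The transactivator *Nlrc5* was a rare transcript. In small intestinal other FB it had 39 and 121 UMIs (9.53 and 5.55 CPM), and in colonic ones 2 and 6 UMIs (0.330 and 0.314 CPM). The small intestinal rate was 19.5 times the colonic (95% counting interval 9.64 to 45.8). In PDGFRα-high FB the ratio was 22.3 (8.33 to 74.8), with 24 UMIs in small intestine and 5 in colon, in CD81+ FB 8.51 (3.39 to 27.4) and in SMC 15.1 (4.06 to 83.1). Colonic sums held 1 to 6 UMIs each, and the intervals are wide.

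*Tap1*, a subunit of the peptide transporter, was at 88.2 and 93.3 CPM in small intestinal and 37.6 and 36.9 CPM in colonic other FB (-1.30 ± 0.20). Its difference was -1.22 ± 0.28 in PDGFRα-high FB, -1.49 ± 0.24 in CD81+ FB and -2.19 ± 0.36 in SMC. In other FB its replicates lay close to each other and the intestines did not overlap. Its partner *Tap2* was at 84.1 and 59.7 CPM against 66.4 and 42.4 CPM in other FB, where the intestines overlapped (-0.43 ± 0.30, adjusted p = 0.804).

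**Figure D2:**
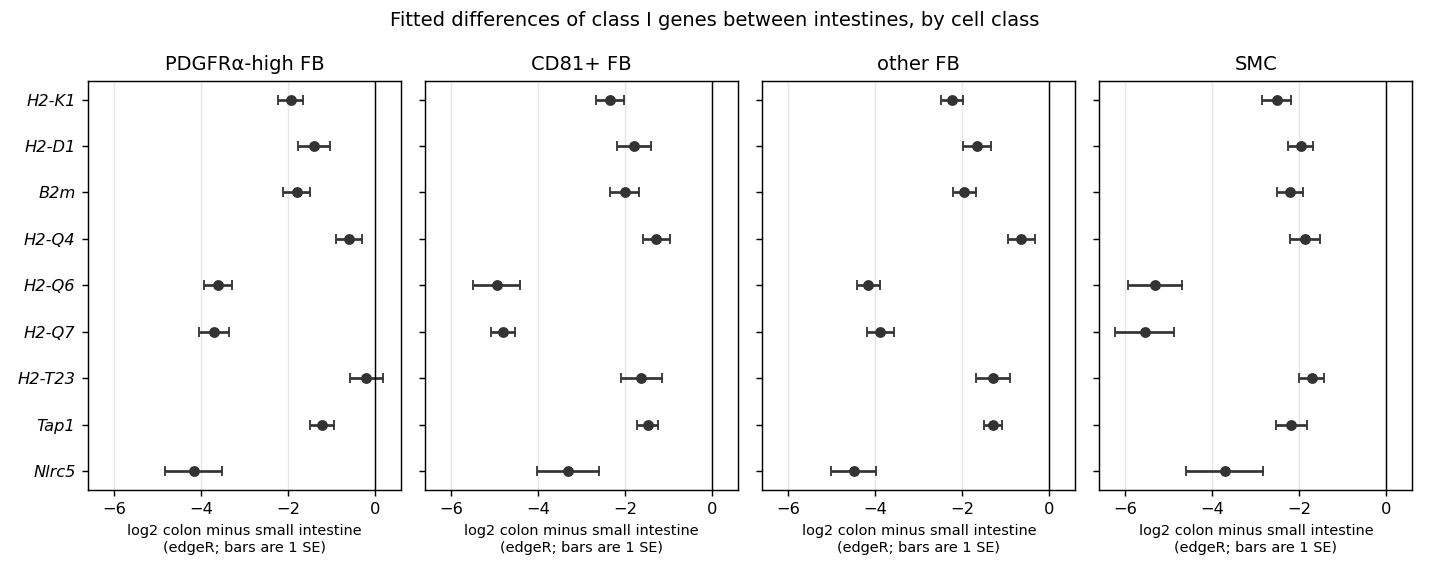
Log2 difference of each gene between colon and small intestine fitted with edgeR, by cell class (bars, 1 SE, 2 libraries a group). *H2-Q6*, *H2-Q7* and *Nlrc5* lie between -3.32 and -5.56, *H2-K1*, *H2-D1*, *B2m* and *Tap1* between -1.22 and -2.52, and *H2-T23* in PDGFRα-high FB lies by 0.

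Read over the 9 genes, each fitted difference was below 0 in each of the 4 classes, with a median of -1.81 in PDGFRα-high FB, -2.01 in CD81+ FB, -1.96 in other FB and -2.21 in SMC. The median over all genes tested was 0.01, -0.01, 0.01 and 0.00. Both colonic libraries were below both small intestinal libraries for 8 of 9 members in PDGFRα-high FB, as for 26.1% of all genes tested, and for 9 of 9 in CD81+ FB (12.5%), other FB (17.3%) and SMC (18.8%). The call used here (adjusted p under 0.05 and log2 fold change beyond 1.5) is not given for the members. Over all genes tested, it took in 0.603% as lower in colon in PDGFRα-high FB, 0.341% in CD81+ FB, 0.142% in other FB and 0.228% in SMC. With the replicate number as a block these shares were 3.14, 2.33, 2.33 and 3.24%. Within replicate 1 and within replicate 2, all 9 members were lower in colon in each of the 4 classes. Since the members had been selected on this contrast, nothing is read from these counts.

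The size of the gap was read over 11 alternatives to the main fit, which include leaving out each library in turn. Over these the fitted difference of *H2-Q7* in other FB ranged from -4.25 to -3.63 and that of *H2-Q6* from -4.33 to -4.00. *H2-Q7* ranged from -4.07 to -3.40 in PDGFRα-high FB, -5.23 to -4.70 in CD81+ FB and -6.86 to -4.89 in SMC. *H2-Q6* ranged from -3.89 to -3.35, -5.72 to -4.42 and -6.80 to -4.70 in these classes. The smallest gap of either gene in any alternative run was thus -3.35.

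Genes that serve the same pathway were read from 3 lists. Of 16 genes of peptide processing and loading, none passed the test in any class, with medians of -0.36, -0.41, -0.42 and -0.28 in PDGFRα-high FB, CD81+ FB, other FB and SMC. The immunoproteasome subunit *Psmb9* was at 135 and 113 CPM in small intestinal and 59.0 and 36.7 CPM in colonic other FB (-1.41 ± 0.28, adjusted p = 0.172). *Psmb8* was at 237 and 219 CPM against 129 and 112 CPM (-0.94 ± 0.20, adjusted p = 0.202). For neither did the intestines overlap, although the test across all genes was not passed.

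Of 19 tested regulators and interferon receptors, again none passed in any class. *Irf1*, a transcription factor induced by interferon, was at 581 and 588 CPM in small intestinal and 366 and 721 CPM in colonic other FB (-0.10 ± 0.41, adjusted p = 0.989), and the sign of that value turns without colon 1 (0.33) and with a stricter gate (0.09). The intestines overlapped in *Irf1*. Of the 7 or 8 tested genes for other class I and class I-like molecules, 1 fell: *H2-Q10*, a Q gene for a secreted class I protein, was at 108 and 71.7 CPM in small intestinal and 9.63 and 7.90 CPM in colonic PDGFRα-high FB (-3.22 ± 0.33, adjusted p = 0.0329, edgeR quasi-likelihood test, Benjamini-Hochberg over 11777 genes). Its call was lost without small intestine 1 (adjusted p = 0.122) and without small intestine 2 (adjusted p = 0.129).

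Set against the classical genes, *H2-Q6* and *H2-Q7* took a smaller place in colon than in small intestine. In small intestinal other FB there were 5.30 and 6.99 UMIs of the pair for each 100 UMIs of *H2-K1* and *H2-D1*, and in colonic other FB 1.13 and 1.70. PDGFRα-high FB had 4.84 and 6.89 against 1.14 and 1.59, CD81+ FB 3.53 and 3.85 against 0.403 and 0.602, and SMC 5.37 and 8.19 against 0.279 and 1.06. The mean small intestinal ratio was thus 4.29 times the colonic in PDGFRα-high FB, 7.34 in CD81+ FB, 4.35 in other FB and 10.1 in SMC, and the intestines did not overlap in any class. The gap of the pair was therefore wider than that of the classical genes in the same cells, which share depth and total UMIs. Within the pair, *H2-Q6* stood at 66.7 and 51.9% of *H2-Q7* in small intestinal and 58.1 and 43.2% in colonic other FB.

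**Figure D3:**
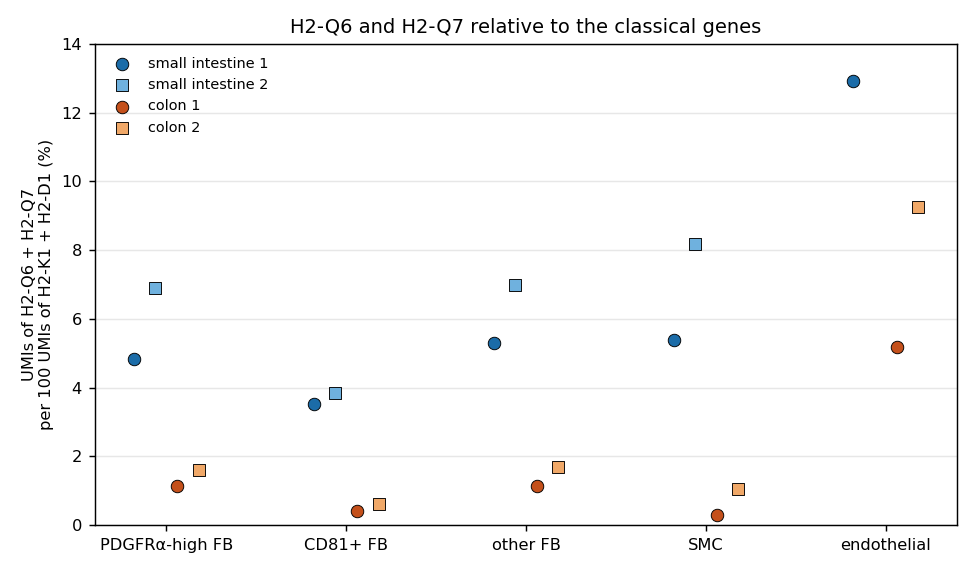
UMIs of *H2-Q6* and *H2-Q7* per 100 UMIs of *H2-K1* and *H2-D1* (percent), with a point for each library and no error bar. Small intestinal points lie between 3.53 and 8.19% in the MSC classes and colonic points between 0.279 and 1.70%, while endothelial cells stand at 12.9% in small intestine 1, 5.17% in colon 1 and 9.25% in colon 2 (small intestine 2 had 2 endothelial cells and is not drawn).

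The cells that carried the transcripts showed the same order. With each cell thinned to 1000 UMIs, *H2-Q7* was found in 19.9 and 18.5% of small intestinal and 1.15 and 1.75% of colonic other FB (62.7, 39.4, 8.5 and 5.66% before thinning). *H2-Q6* was found in 14.2 and 10.5% against 0.720 and 0.803%. *H2-K1* was found in 90.8 and 85.8% against 44.4 and 38.6% of the same cells. In small intestinal other FB the variance of the thinned *H2-Q7* count was 1.16 and 1.12 times its mean, little above the 1 of independent counting. In the sums over cells used above, fewer expressing cells and less RNA per cell cannot be told apart. Every nucleated cell type may express class I genes, so no class gives the share that free RNA would produce, and its part was not tested.

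Within a library, the FB classes also differed in class I genes. CD81+ FB had less *H2-Q7* than other FB in 4 of 4 libraries (-1.05 ± 0.20, fitted with library as a block) and less *H2-Q6* (-0.95 ± 0.16), *H2-T23* (-0.48 ± 0.09) and *Tap1* (-0.37 ± 0.07). In the fit *H2-K1* (-0.11 ± 0.07), *H2-D1* (-0.10 ± 0.07) and *B2m* (-0.04 ± 0.07) were close to 0. In CPM, without the TMM scaling of the fit, each was lower in 4 of 4 libraries. *H2-K1* and *H2-D1* were at -0.13 to -0.30 there and *B2m* at -0.00056 to -0.23. *H2-Q4* gave -0.23 ± 0.16 and was lower in 3 of 4 libraries, and *Nlrc5* gave -0.61 ± 0.29 and was lower in both small intestinal libraries only. The classical genes and the light chain thus differed less from other FB than *H2-Q6* and *H2-Q7* did, which were at -0.69 to -2.26 in CPM. Over the alternatives *H2-Q7* ranged from -1.60 to -0.81, *H2-Q6* from -1.27 to -0.77 and *H2-T23* from -0.75 to -0.37. Since classes had been read when the members were selected, no call is given for members between classes.

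PDGFRα-high FB had less *H2-Q7* (-0.58 ± 0.08), *H2-Q4* (-0.57 ± 0.10), *B2m* (-0.52 ± 0.10) and *H2-D1* (-0.41 ± 0.12) than other FB of the same library, lower in 4 of 4 libraries each. In CPM, without the TMM scaling of the fit, these differences were smaller in each library. They were -0.35 to -0.45 for *H2-Q7*, -0.17 to -0.52 for *H2-Q4*, -0.25 to -0.42 for *B2m* and -0.15 to -0.38 for *H2-D1*. *H2-D1* ranged from -0.48 to -0.33 over the alternatives. The fit placed *H2-K1* at -0.36 ± 0.11, *H2-Q6* at -0.32 ± 0.13, *Tap1* at -0.23 ± 0.08 and *Nlrc5* at -0.61 ± 0.33. *H2-T23* was lower in both small intestinal libraries (-0.66 and -0.77 in CPM) and higher in both colonic libraries (0.16 and 0.35), so that the fitted value of -0.41 ± 0.27 describes neither intestine. In CPM the class order of *H2-T23* was thus opposite in the 2 intestines, and this was not read on the fitted scale.

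Among list genes, which are no members, CD81+ FB had less *H2-Q10* (-1.94 ± 0.18, adjusted p = 0.000179), *Psmb9* (-0.57 ± 0.10, adjusted p = 0.00461), the interferon-γ receptor chain *Ifngr1* (-0.44 ± 0.06, adjusted p = 0.00183), the interferon signalling factor *Stat2* (-0.33 ± 0.09, adjusted p = 0.0419) and *Tap2* (-0.25 ± 0.07, adjusted p = 0.0383) than other FB. They had more of the kinase *Jak1* (0.34 ± 0.07, adjusted p = 0.0152) and of *Rela*, an NF-κB subunit (0.49 ± 0.11, adjusted p = 0.0229). *Psmb8* (-0.44 ± 0.12, adjusted p = 0.0510) and *Irf1* (0.21 ± 0.13, adjusted p = 0.356) did not pass. In all, 2 of 16 loading genes rose and 3 fell, 0 of 8 class I-like genes rose and 2 fell, and 2 of 19 regulators rose and 2 fell, where 7.17% of all genes rose and 6.8% fell. The call of *Stat2* was lost without each library in turn (adjusted p = 0.0619 to 0.150), with DESeq2 (0.198), with clusters (0.0549) and with a stricter gate (0.0534). The call of *Tap2* was lost without each library in turn (adjusted p = 0.102 to 0.119), with DESeq2 (0.235), with clusters (0.164) and with a stricter gate (0.167). *Jak1* lost it without small intestine 1 or 2 (adjusted p = 0.0675 and 0.0738), and *Rela* without small intestine 1 or colon 2 (0.0670 and 0.0729).

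PDGFRα-high FB had more of the trimming peptidase *Erap1* (0.55 ± 0.10, adjusted p = 0.00610) and of *H2-M3*, which presents formylated peptides (0.57 ± 0.08, adjusted p = 0.00283). They had less *Fcgrt*, the neonatal Fc receptor (-0.82 ± 0.12, adjusted p = 0.00273), *Cd1d1*, a lipid-presenting molecule (-0.70 ± 0.20, adjusted p = 0.0383), *Jak2* (-0.59 ± 0.15, adjusted p = 0.0272) and *Ifnar2* (-0.49 ± 0.08, adjusted p = 0.00395). There, 4 of 16 loading genes rose and 0 fell, 2 of 8 class I-like genes rose and 2 fell, and 0 of 19 regulators rose and 3 fell, where 11.4% of all genes rose and 14.5% fell. *Tap2* (0.17 ± 0.10, adjusted p = 0.254), *Psmb8* (0.13 ± 0.08, adjusted p = 0.252), *Psmb9* (0.03 ± 0.09, adjusted p = 0.845) and *Irf1* (-0.57 ± 0.19, adjusted p = 0.0746) did not pass. *Cd1d1* lost its call without small intestine 1 (adjusted p = 0.0942), small intestine 2 (0.102) or colon 1 (0.101) and with doublets kept (0.0504), and *Jak2* without small intestine 1 (0.0649), colon 1 (0.0502) or colon 2 (0.119).

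Whether the intestines differ more in PDGFRα-high FB or in other FB was read as a class by tissue term. It was 1.14 ± 0.14 (log2) for *H2-T23*, the widest of the 9. *H2-Q6* was at 0.54 ± 0.20, *H2-K1* at 0.31 ± 0.12, *H2-D1* at 0.30 ± 0.12 and *H2-Q7* at 0.19 ± 0.17. *B2m* (0.17 ± 0.13), *Tap1* (0.09 ± 0.16) and *H2-Q4* (0.07 ± 0.14) were near 0, and *Nlrc5* could not be placed (0.12 ± 1.21). In the main fit all 9 terms were above 0, those of *H2-Q4*, *Tap1* and *Nlrc5* by less than their SE. That of *H2-T23* stood apart from the rest. No p is given because the values had been seen.

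Some MSC in both intestines carried transcripts of interferon response genes, and class I genes were compared between them and the rest. Cells were gated on a panel of 12 interferon genes such as *Ifit1*, *Isg15* and *Rsad2* that holds no class I gene, and the selection of the members did not use this contrast, so tests are given (edgeR quasi-likelihood test, library as a block, Benjamini-Hochberg over 12534 genes). The gate took 59 of 1260 (4.68%), 151 of 12379 (1.22%), 25 of 2036 (1.23%) and 76 of 11132 MSC (0.683%) in the order of libraries given above. In these cells *Tap1* rose 2.81-fold, from 77.9, 85.6, 29.9 and 33.5 CPM to 133, 215, 153 and 120 CPM (log2 1.49 ± 0.15, adjusted p = 1.13e-19), higher in 4 of 4 libraries. *Nlrc5* rose as well (1.95 ± 0.53, adjusted p = 0.0123) on 7, 11, 0 and 1 UMIs in gated cells. The gate took 11 of 46 pericytes (23.9%) and 18 of 544 other FB (3.31%) in small intestine 1. It took 0, 3 and 2 pericytes in the other libraries. Pericytes of small intestine 1 had more *Tap1* (186 against 88.2 CPM) and *H2-Q4* (933 against 531 CPM) than other FB, and less *H2-Q7* (142 against 218 CPM). The part of the class mix was not tested.

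Among heavy chains, *H2-Q4* rose by 0.63 ± 0.11 (adjusted p = 1.60e-06), *H2-T23* by 0.61 ± 0.12 (adjusted p = 1.10e-05) and *H2-K1* by 0.35 ± 0.09 (adjusted p = 0.00935), each higher in 4 of 4 libraries, and *B2m* by 0.38 ± 0.09 (adjusted p = 0.00319). *H2-D1* gave 0.26 ± 0.09 and was higher in 4 of 4 libraries (adjusted p = 0.111). *H2-Q7* was at 176, 200, 23.2 and 12.6 CPM in gated cells and 166, 186, 8.21 and 12.7 CPM in the rest (0.16 ± 0.18, 95% interval -0.19 to 0.50, adjusted p = 0.914). *H2-Q6* was at 85.8, 155, 0 and 18.9 CPM against 117, 93.8, 6.15 and 6.15 CPM (0.26 ± 0.20, 95% interval -0.13 to 0.65, adjusted p = 0.836), where 0 UMIs in colon 1 allow up to 13.9 CPM. The intervals of both lie below that of *Tap1* (1.19 to 1.79) and overlap those of *H2-Q4* and *H2-T23*, and differences between genes were not tested.

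Of the 9 members 6 passed, where 1.76% of all genes were called higher. The calls were not equally firm. With no library block in edgeR none of the 6 passed (*Tap1* adjusted p = 0.512). With DESeq2 *H2-T23* and *Tap1* passed and the other 4 did not. With a lower interferon cut *Tap1* (adjusted p = 0.184), *H2-Q4* (0.565) and *Nlrc5* (0.0528) did not pass. With a higher cut *H2-T23* (log2 0.16, adjusted p = 0.804), *H2-Q4* (0.43, 0.249), *H2-K1* (0.17, 0.674) and *B2m* (0.0217, 0.979) did not. Without colon 1 *B2m* and *H2-K1* lost the call, without small intestine 2 *H2-K1* and *Nlrc5*, without small intestine 1 *Nlrc5*, and without colon 2 *H2-K1* and *H2-Q4*. DESeq2 also placed the median of all genes at 0.19 and edgeR at -0.06, and each difference is relative to its own centre. Of 272 calls in edgeR 220 were higher and 52 lower, and of 149 in DESeq2 147 were higher and 2 lower. *Stat2* rose by 1.46 ± 0.20 (adjusted p = 2.17e-11), *Irf9* by 1.14 ± 0.17 (adjusted p = 4.45e-09) and *Socs1* by 1.03 ± 0.13 (adjusted p = 4.99e-10). *Irf9* lost its call with the lower cut (adjusted p = 0.370), and *Socs1* with the lower (0.382) and the higher cut (log2 0.56, adjusted p = 0.217). With no library block in edgeR *Stat2* (adjusted p = 0.0565), *Irf9* (0.255) and *Socs1* lost theirs too. Over the alternatives *B2m* ranged from 0.0217 to 0.47, *H2-K1* from 0.17 to 0.43, *H2-Q4* from 0.36 to 0.76 and *Nlrc5* from 1.41 to 2.61. *Stat2*, *Irf9* and *Socs1* serve interferon signalling and its feedback.

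Of the 3 lists, 4 of 19 regulators, 3 of 16 loading genes and 2 of 9 class I-like genes rose and none fell (1.76% of all genes rose and 0.415% fell). *Psmb8* (0.77 ± 0.13, adjusted p = 3.14e-07) and *Psmb9* (0.77 ± 0.16, adjusted p = 8.49e-05) rose with *Tap1*, as did *Psmb10* (0.72 ± 0.13, adjusted p = 1.10e-05) and *Rela* (0.56 ± 0.16, adjusted p = 0.0281), while *Tap2* did not pass (0.52 ± 0.17, adjusted p = 0.0892), nor did *Irf1* (0.71 ± 0.29, adjusted p = 0.626). *Psmb9* lost its call without small intestine 2 (adjusted p = 0.0807) and with the higher cut (0.126), and with DESeq2 *H2-M9* did (0.126). *H2-T22* rose by 0.79 ± 0.13 (adjusted p = 3.65e-07) and the rare *H2-M9* by 3.12 ± 0.84 (adjusted p = 0.0111) on 6, 0, 0 and 1 UMIs in gated cells. With no library block *Psmb8*, *Psmb9* and *H2-T22* lost their calls. In the same cells *H2-Q6* and *H2-Q7* gave no call, nor did *H2-D1* and 13 of the 16 loading genes, and differences between genes were not tested.

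**Figure D4:**
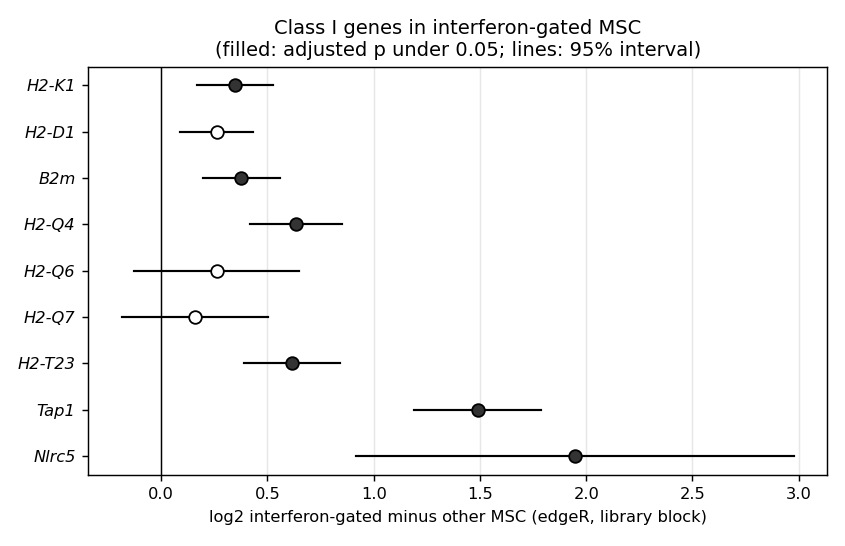
Log2 difference between interferon-gated and other MSC, fitted with edgeR over 4 libraries with library as a block (lines, 95% interval; filled points passed an adjusted p of 0.05). *Tap1* (1.49) and *Nlrc5* (1.95) lie farthest right, and the intervals of *H2-Q6* and *H2-Q7* include 0.

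Another pattern appeared across FB clusters, which had been made in each library without the class I, list and interferon genes. In each library the cluster with the most *Cxcl9*, a chemokine gene that interferon-γ induces, was read after the levels of the 9 genes had been seen, so the values are a description. It held 133 cells in small intestine 1, 263 in small intestine 2, 138 in colon 1 and 630 in colon 2. In all 4 libraries this cluster was above the median of the other FB clusters for 9 of 9 members, with *Nlrc5* in colon resting on few UMIs. The members ranked highest there numbered 3, 9, 5 and 6 of 9. Of the FB clusters, 6 had at least 3 of their 6 leading genes from epithelial cells (2 in small intestine 1, 1 in colon 2), plasma cells (1 in colon 1, 1 in colon 2) or immune cells (1 in colon 2, led by *Cd74*, *Lyz2* and *C1qa*). Without these 6, a choice made after the data had been seen, the *Cxcl9* cluster was again above the median for 9 of 9 members in all 4 libraries, and 4, 9, 5 and 7 members ranked highest.

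In small intestine 2 the cluster, led by *Cxcl9*, *Saa3*, *Cxcl5*, *Ubd* and *Gbp4*, had 419 CPM of *H2-Q7* where the other 13 FB clusters lay between 62.7 and 324 CPM. It had 289 CPM of *H2-Q6* (others 21.8 to 168 CPM), 338 CPM of *Tap1* (48.2 to 105 CPM) and 25 CPM of *Nlrc5* (2.07 to 8.16 CPM). *H2-K1* was at 3384 CPM (1718 to 2504 CPM). Every member was highest there. In small intestine 1 the gaps were smaller, with *H2-Q7* at 250.4 CPM and the others at 85.5 to 249 CPM, or to 219 CPM without the clusters led by epithelial genes.

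In colon the pair *H2-Q6* and *H2-Q7* was highest in the same kind of cluster. In colon 2, *H2-Q7* was at 46.8 CPM in the *Cxcl9* cluster, with the other 16 clusters between 1.17 and 31.3 CPM and their median at 7.12 CPM. *H2-Q6* was at 22.9 CPM (others 0 to 18.8 CPM). The highest of the others was for both genes the cluster led by *Cd74* and *Lyz2*, and without the 3 clusters led by genes of other cells the other 13 reached 22.98 CPM of *H2-Q7* and 9.44 CPM of *H2-Q6*. In colon 1, *H2-Q7* was at 25.6 CPM (1.28 to 15.2 CPM) and *H2-Q6* at 23.1 CPM (0.641 to 11.6 CPM). *H2-K1* was at 676 CPM in colon 1 (434 to 643 CPM) and 642 CPM in colon 2 (324 to 688 CPM, or to 641 CPM without those 3 clusters). Colonic clusters thus spread over a wider range in *H2-Q7* than in *H2-K1*, yet for both genes the highest colonic cluster was below the lowest small intestinal cluster. For *H2-T23* the *Cxcl9* cluster ranked 3 from the top of all FB clusters in each colonic library, 2 in small intestine 1 and 1 in small intestine 2.

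**Figure D5:**
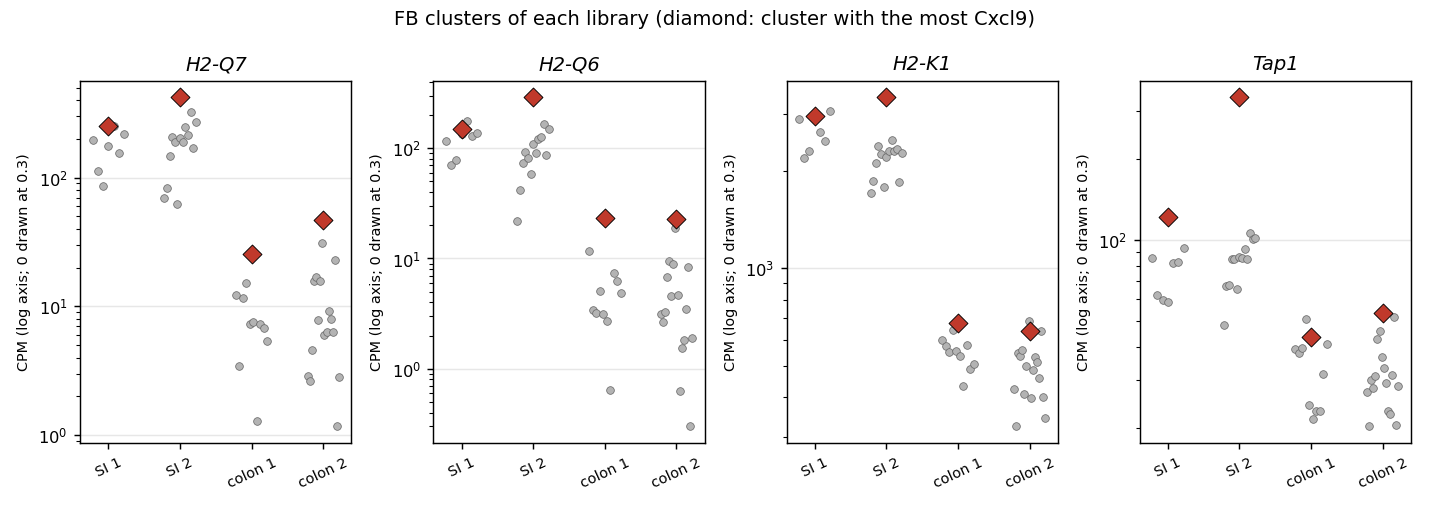
CPM (log axis, 0 drawn at 0.3) of *H2-Q7*, *H2-Q6*, *H2-K1* and *Tap1* in each FB cluster of the 4 libraries (SI, small intestine), with the cluster that had the most *Cxcl9* as a diamond and the others, also those led by genes of other cells, as grey points. In small intestine 2 the diamond is highest for all 4 genes, and in colon 1 and colon 2 for *H2-Q7* and *H2-Q6*.

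The genes whose levels were most like those of *H2-Q7* over 20 sums (4 libraries by 5 MSC classes) were named by Pearson's r of log2(CPM + 10) among 6303 genes. They were *Lrat*, an enzyme of vitamin A storage (r = 0.959), *Hoxc8* (0.942), *Psmb8* (0.922), *Igtp*, an interferon-induced GTPase (0.895), and *Psmb10* (0.891). *Lrat* was at 335 and 359 CPM in small intestinal and 1.15 and 0.785 CPM in colonic other FB. Among the members, *H2-K1* had 0.963, *B2m* 0.960, *H2-Q6* 0.956, *H2-D1* 0.912, *H2-T23* 0.820, *H2-Q4* 0.784, *Tap1* 0.753 and *Nlrc5* 0.721. The sums of a library share its depth and intestine, and any gene that separates the intestines scores high on this measure.

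Endothelial and immune cells of the same libraries had more of both Q genes than the MSC. In endothelial cells *H2-Q7* was at 510.2 CPM in small intestine 1 (811 UMIs), 81.3 CPM in colon 1 (105 UMIs) and 158 CPM in colon 2 (25 UMIs). Colonic endothelial cells were thus well above the other FB of the same library (12.2 and 17.4 CPM). *H2-Q6* was at 476, 102 and 151 CPM in them, and *H2-K1* at 3447, 1219 and 1292 CPM. In immune cells, 16 to 53 per library, the small intestinal libraries had 408 and 419 CPM of *H2-Q7* and the colonic ones 80.1 and 88.4 CPM. Colon was lower in these cells as well, and with 1 usable small intestinal library of endothelial cells that difference was not tested.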

How the data were processed

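UMI counts per gene and cell barcode were measured in 4 libraries of sorted mouse intestinal MSC, 2 from small intestine and 2 from colon, grouped by their labels. The authors deposited filtered matrices of raw UMI counts made with Cell Ranger, which the submitters' processing notes give as version 3.0.2, against mm10. The file headers name 3.0.2 for the replicate 1 and 3.1.0 for the replicate 2 libraries. The notes also name Seurat 3. The capture chemistry of each library (3′ or 5′) is not given in the sources used here. Total counts per library ranged from 14341443 to 52269372 UMIs.

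Barcodes were kept from 500 genes and 1000 UMIs upward, if no more than 10% of their UMIs were mitochondrial, and doublets called by scrublet in scanpy 1.11.5 (0.327 to 5.982% of cells) were removed. In small intestine 1 the caller marked 6 of 1834 cells. Cells were gated on marker scores (cut 0.25, lead 0.1, at least 3 markers detected). UMIs were summed per library and class, and CPM are relative to all UMIs of the sum. Sums were tested with edgeR 4.0.16 (quasi-likelihood, TMM, filterByExpr, Benjamini-Hochberg over all genes tested, threshold 0.05), in R 4.3.3, and the procedure was tested on simulated data. Between intestines a log2 fold change beyond 1.5 was also required. Interferon-gated cells had at least 4 UMIs of the 12-gene panel, making up at least 0.2% of their UMIs. Alternatives were DESeq2 1.42.0, no filter on low counts, the replicate block, 1000 genes per cell, doublets kept, clusters or a stricter gate in place of the gate, other interferon cuts (0.1 and 0.4%), and leaving out each library. Floors are 3 UMIs, intervals are at 95%, and both cover counting error only. The labels do not tie libraries to single mice, so p-values measure the spread between these pools.

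The members and gene lists were chosen with earlier results of these data known. All 9 members were named in every comparison, with up to 6 called list genes of the largest change in each, and *Tap2*, *Psmb8*, *Psmb9* and *Irf1* (between intestines in other FB) as further examples. *Psmb10* and *Rela* in interferon-gated cells were added after their values were seen. 1 further list gene is not reported here and is in no list count. *H2-Q5*, *H2-Q8*, *H2-Q9*, *H2-T10*, *H2-T9* and *H2-Bl* were not analysed here. Promoters came from a RefSeq table (GRCm38.p6) and gene coordinates from GENCODE vM21.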

Additional observations from a re-analysis of the deposited data

Results flagged for a closer look

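For 6 genes the difference between colon and small intestine was not alike in PDGFRα-high FB and in other FB, by the class by intestine term of edgeR's quasi-likelihood fit over 4 libraries (1509 of 12611 genes had such a term at an adjusted p under 0.05). The Qa-1 gene *H2-T23* had a term of 1.14 ± 0.14 (log2), given without a p because it is a member. Among list genes, *Nfkb1*, an NF-κB subunit, had 1.08 ± 0.16 (adjusted p = 1.92e-05), *Irf1* 0.803 ± 0.149 (adjusted p = 0.000439) and *Rela* 0.568 ± 0.177 (adjusted p = 0.0365). *Fcgrt*, the neonatal Fc receptor, had 0.478 ± 0.135 (adjusted p = 0.0180). These values are above 0, so the colonic level relative to the small intestinal one was higher in PDGFRα-high FB. *H2-Q10* went the other way with -1.88 ± 0.21 (adjusted p = 2.89e-07): it was at 108 and 71.7 CPM in small intestinal and 9.63 and 7.90 CPM in colonic PDGFRα-high FB, and at 28.3 and 20.4 against 11.7 and 8.58 CPM in other FB. The call of *Fcgrt* was lost without colon 1 or colon 2 (adjusted p = 0.161 and 0.147), and that of *Rela* without small intestine 2 (0.652) or colon 1 (0.189). Both were also lost with doublets kept (adjusted p = 0.0993 and 0.145).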

How the results depend on the processing

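Calls between intestines numbered 145 in PDGFRα-high FB, 61 in CD81+ FB, 39 in other FB and 40 in SMC. With the replicate number as a block they were 924, 443, 674 and 541. The labels do not call the number a pairing, and with 2 pairs it was not taken as one, although it runs with Cell Ranger version and library size. DESeq2 gave 527, 232, 386 and 187, and no filter on low counts 522, 315, 319 and 297. With doublets kept there were 88 in PDGFRα-high FB, 39 in CD81+ FB and 0 in SMC (870 at an unadjusted p under 0.05 in edgeR, 187 calls by DESeq2 with doublets removed). With clusters in place of the gate there were 100 in CD81+ FB, 109 in other FB and 92 in SMC. Leaving out a library gave 0 to 258 in PDGFRα-high FB, 0 to 197 in CD81+ FB, 6 to 166 in other FB and 38 to 241 in SMC, and the lone library left was assumed to vary like the other group. The 0 arose without small intestine 1 or 2 in PDGFRα-high FB (1039 and 1028 at an unadjusted p under 0.05) and without small intestine 2 in CD81+ FB (522). Within libraries, calls of PDGFRα-high against other FB numbered 3265, 783 with no replicate block and 2010 to 2543 without a library. Those of CD81+ against other FB numbered 1754, 96 with no replicate block and 1171 to 1415 without a library. Interferon-gated cells gave 272 calls, 20 with no replicate block, 149 with DESeq2 and 202 to 254 without a library, and the median of all genes moved from -0.06 to 0.19 with DESeq2, -0.23 with no filter and -0.31 with the higher cut. The class by intestine term gave 1509 calls, 994 with doublets kept and 1029 to 1535 without a library. The log2 colonic over small intestinal ratio of the *H2-Q6* and *H2-Q7* pair to the classical genes, as a mean over the 3 FB classes, was -2.37, -2.56 by clusters and -2.69 in thinned cells, and -2.67 to -2.12 without a library.

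Signs turned in few results. Leaving out a library in turn, the value between intestines ran from -0.48 to 0.27 for *Tap2* and from -0.56 to 0.26 for *H2-T23* in PDGFRα-high FB (above 0 without small intestine 1 or colon 2), from -0.52 to 0.0308 for *Irf1* in CD81+ FB and from -0.75 to 0.33 for *Irf1* in other FB, where the stricter gate gave 0.0947. In PDGFRα-high against other FB, *Psmb9* ran from -0.0356 to 0.0868. In CD81+ against other FB, *B2m* ran from -0.0624 to 0.00106. In interferon-gated cells *H2-Q6* ran from -0.24 (without small intestine 2) to 0.70, and with the higher cut *H2-D1* was at -0.0435 and *H2-Q7* at -0.20. The class by intestine term ran from -0.14 to 0.24 for *Psmb9* and from -0.00216 to 0.15 for *Psmb8*. For *H2-Q4* (0.07 ± 0.14), *Tap1* (0.09 ± 0.16) and *Nlrc5* (0.12 ± 1.21) this term lay within its SE of 0, so its sign is not settled. The causes were not tested. With 1 to 6 UMIs of *Nlrc5* in each colonic FB or SMC sum, depth limits its values. The clusters used as an alternative include 6 led by genes of other cells.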
